A study of Mus musculus with 6 samples.

Results

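The genes described here are 36 that encode enzymes and transporters of sphingolipids and of the lipid barrier of squamous epithelium. They were listed by name, from ceramide synthesis and breakdown through very long fatty acids to lipoxygenases and lipases, and sorted into 11 pathway steps. All 36 were found by their current symbols on the array, out of 19938 genes measured, each through a probe set that names that gene alone. The tissue was esophageal epithelium of mice aged 3 months on a mixed genetic background, with 3 mice and 3 arrays in each group. In the mutant group (1 male and 2 females) both copies of *Klf4* carried loxP sites and the ED-L2-Cre transgene was present. ED-L2 is a promoter active in stratified squamous epithelia such as that of the esophagus. The control group (1 male and 2 females) had the same loxP-flanked *Klf4* and no Cre, and came from the same litters with sexes matched. The comparison asks how these lipid genes differ in esophageal epithelium when the transcription factor KLF4 is targeted.

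Sphingolipid synthesis begins when serine palmitoyltransferase joins serine to a fatty acyl-CoA. Ceramide synthases then add a fatty acid to the sphingoid base, a desaturase gives ceramide, and head groups turn ceramide into sphingomyelin or glucosylceramide. Ceramidases release sphingosine, which kinases phosphorylate to a signalling lipid. In cornifying epithelium, very long fatty acids are hydroxylated and linked to linoleate to form acylceramides. These lipids are packed into lamellar granules, oxidised by lipoxygenases and attached to the cornified envelope, and inherited defects in several of these genes cause ichthyosis.

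Values are log2 probe set signals as deposited, and errors of group means are SD over 3 arrays. *Klf4* itself read 9.75, 10.15 and 10.06 on the control arrays and 10.28, 10.50 and 10.28 on the mutant arrays, so its signal was not lower in the mutant group (difference 0.37 ± 0.13, SE; limma adjusted p = 0.314). The sources used here place neither the probes nor the removed part of the gene, and a probe outside that part checks nothing. Groups are therefore named by their labels, and directions are those of the arrays labelled mutant against the arrays labelled control. Keratinocyte markers other than *Krt6a* were bright in both groups. *Krt13* and *Krt4*, the keratins of the upper esophageal layers, had control means of 13.78 and 13.68 and differences of 0.027 and -0.043, and none of 12 keratinocyte markers was dim. *Krt6a*, a keratin of activated epithelium, read 3.93, 6.54 and 5.68 on the control arrays and 10.09, 8.08 and 7.88 on the mutant arrays (difference 3.30 ± 0.76, adjusted p = 0.114). By direction 7 of the 12 markers were higher and 5 lower. Groups were separate for 4 (33.3%, against 18.1% of all genes), all of them higher. Besides *Krt6a* these were *Dsg3* (0.73 ± 0.23), *Epcam* (0.63 ± 0.11) and *Cdh1* (0.21 ± 0.088), and 0 of the 12 passed. A gene is called dim where its mean over the 6 arrays lies under 4.72, the 40th percentile of all gene means. This held for 4 of the 36 genes, *Fa2h*, *Sgms2*, *Elovl3* and *Lipn*.

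Of the 36 genes, 1 rose, 1 fell and 34 did not pass an adjusted p of 0.05 in limma. *Sptlc1*, which encodes the subunit shared by all forms of serine palmitoyltransferase, rose 2.75-fold (95% interval 2.27 to 3.35). *Acer3*, which encodes an alkaline ceramidase, fell 1.904-fold. Among all genes measured, 0.366% rose and 0.672% fell by the same rule. Sequence upstream of both genes is shown because these are the members that passed. Each run gives the 250 bases before an annotated transcript start, from RefSeq on build GRCm38.p6 (minus strand, written 5′ to 3′ along the gene). Capitals mark CACNCCC or its reverse complement GGGNGTG, a form of the CACCC element that KLF proteins bind, searched on both strands. *Sptlc1* has 1 annotated window, at chr13:53377362-53377611. *Acer3* has 2, at chr7:98309543-98309792 and chr7:98321209-98321458.
Sptlc1: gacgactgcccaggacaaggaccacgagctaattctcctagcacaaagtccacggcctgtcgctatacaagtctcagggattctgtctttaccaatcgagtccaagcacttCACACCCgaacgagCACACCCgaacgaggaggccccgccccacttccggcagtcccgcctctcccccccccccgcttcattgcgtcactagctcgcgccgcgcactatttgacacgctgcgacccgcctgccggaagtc
Acer3, first window: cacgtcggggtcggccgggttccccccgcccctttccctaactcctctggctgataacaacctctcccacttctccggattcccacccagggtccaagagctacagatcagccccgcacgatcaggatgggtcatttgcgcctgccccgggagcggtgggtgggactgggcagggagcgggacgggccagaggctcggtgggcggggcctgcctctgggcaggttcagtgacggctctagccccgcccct
Acer3, second window: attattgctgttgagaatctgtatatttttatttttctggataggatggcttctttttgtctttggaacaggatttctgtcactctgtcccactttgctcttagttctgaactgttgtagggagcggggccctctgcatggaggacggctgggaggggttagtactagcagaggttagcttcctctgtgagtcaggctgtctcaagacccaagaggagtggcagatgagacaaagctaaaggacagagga
The *Sptlc1* window held 2 matches, which begin 139 and 125 bases before the start. Both *Acer3* windows held 0, which says only that these letters are not in them. At least 1 match was found in 26.1% of all 32851 windows, and 2 or more in 6.32%. Windows were listed for 30 of the 36 genes, and 23 of their 46 windows held a match (50%). Some genes have several windows, so this share counts windows and not genes, and it was not tested. Among the members with a match, only *Sptlc1* passed. *Cers5* and *Sgms1*, with up to 4 and 3 matches in a window, did not. *Cerk*, a gene outside the list that fell (below), had 1 match in its window. No binding was measured here.

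At the first step, 1 of the 3 serine palmitoyltransferase subunit genes rose and 2 did not pass. *Sptlc1* read 10.09, 9.92 and 10.12 on the control arrays and 11.37, 11.70 and 11.45 on the mutant arrays. Every mutant array lay more than 1 log2 unit above every control array. The difference was 1.46 ± 0.12 (SE; limma adjusted p = 0.00421), the only difference of 1 or more among the 36 genes. It was 1.28 in the male pair and 1.55 in the females. The call held in all 15 alternatives that were planned, with differences from 1.36 to 1.55. *Sptlc2*, a catalytic subunit that pairs with SPTLC1, read 9.41, 9.24 and 9.33 on the control arrays and 9.73, 9.84 and 9.59 on the mutant arrays. Its groups did not overlap, yet its difference of 0.39 ± 0.10 did not pass (adjusted p = 0.159). *Sptlc3*, the alternative catalytic subunit, read 10.31, 10.20 and 10.28 against 10.17, 10.65 and 10.54. Mutant array 1 lay below all controls and the other mutants above them, and the difference was 0.19 ± 0.14 (adjusted p = 0.669).

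**Figure D1:**
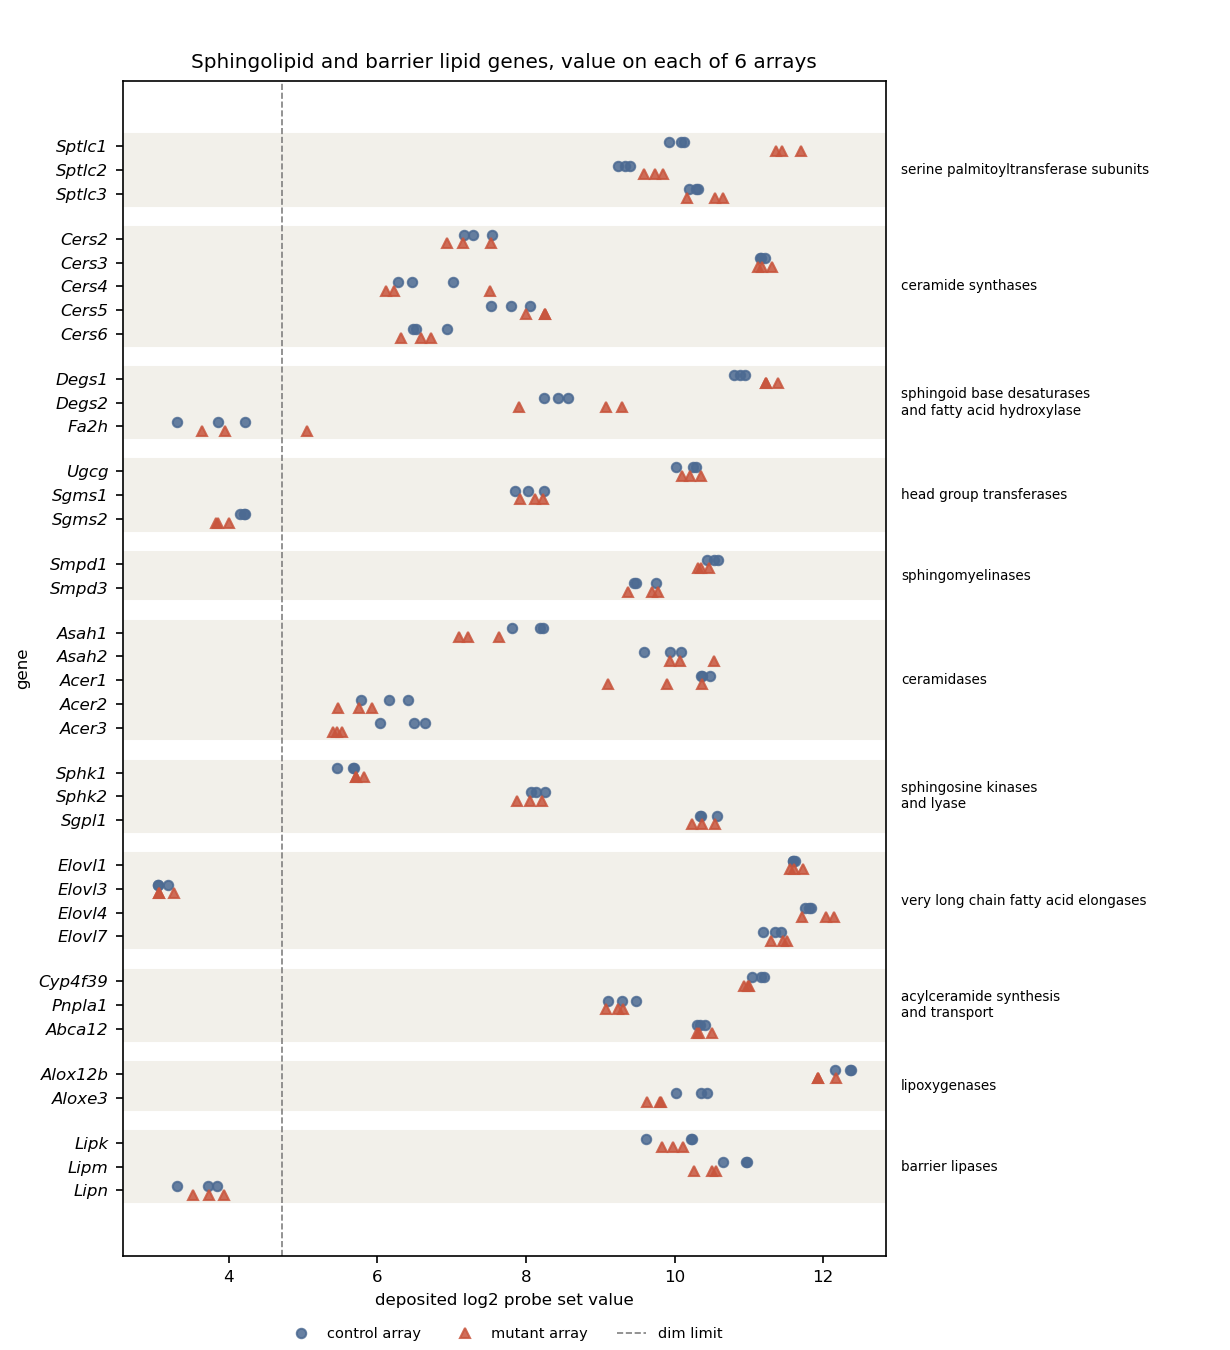
Deposited log2 values (horizontal axis) of the 36 genes (rows, grouped by pathway step) on 3 control arrays (circles) and 3 mutant arrays (triangles), with the dim limit of 4.72 as a dashed line. The groups of *Sptlc1* lie far apart, at 9.92 to 10.12 and 11.37 to 11.70, while most other rows overlap.

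The ceramide synthases, which add fatty acids of different lengths to the sphingoid base, gave no call, and 0 of 5 had separate groups. *Cers3*, the enzyme for the ultra-long ceramides of the barrier, read 11.14, 11.16 and 11.22 on the control arrays and 11.17, 11.31 and 11.12 on the mutant arrays. Its difference of 0.029 had a 95% interval of -0.19 to 0.25, among the narrowest of the list. *Cers5*, which makes ceramides with palmitate, differed by 0.38 ± 0.15 (adjusted p = 0.369), and mutant array 1 (7.99) lay under control array 1 (8.05). *Cers2* and *Cers6* differed by -0.13 ± 0.17 and -0.11 ± 0.16. *Cers4* was the most scattered of this step. It read 6.11, 7.51 and 6.22 on the mutant arrays against 7.02, 6.47 and 6.28 on the controls. Its difference was 0.027 with an interval of -0.84 to 0.90, so these arrays bound its change only loosely.

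Genes acting next on the sphingoid base and the fatty acid were all higher on average, with none past the threshold. *Degs1*, the desaturase that turns dihydroceramide into ceramide, read 10.95, 10.88 and 10.81 on the control arrays and 11.22, 11.39 and 11.24 on the mutant arrays. The groups were separate, with a difference of 0.41 ± 0.098 (adjusted p = 0.124). *Degs2*, whose enzyme also hydroxylates the base to make phytoceramides, read 9.29, 9.08 and 7.91 on the mutant arrays against 8.24, 8.56 and 8.43 on the controls. Mutant arrays 1 and 2 lay above the controls and mutant array 3 below, and the difference was 0.35 ± 0.33. The hydroxylase gene *Fa2h* was dim, with a difference of 0.42 ± 0.38. Mutant array 2 (5.05) carried it, and without that array the difference was 0.0032.

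Genes for adding and removing head groups gave no call. *Ugcg*, encoding glucosylceramide synthase, had control and mutant means of 10.19 ± 0.14 and 10.22 ± 0.13. *Sgms1*, the sphingomyelin synthase of the Golgi, had means of 8.04 ± 0.20 and 8.09 ± 0.15. *Sgms2*, its relative at the plasma membrane, read 3.999, 3.83 and 3.86 on the mutant arrays, below the 4.15 to 4.22 of the controls. It is dim, and its difference of -0.30 ± 0.094 did not pass (adjusted p = 0.231). For the sphingomyelinases, which return sphingomyelin to ceramide, *Smpd1* (the lysosomal acid enzyme) differed by -0.14 ± 0.095 and *Smpd3* (a neutral enzyme) by 0.052 ± 0.139. Intervals of *Ugcg*, *Sgms1*, *Smpd1* and *Smpd3* all lay within 0.5 of 0 on the log2 scale.

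Ceramidases, which split ceramide into sphingosine and a fatty acid, held the other call. Of the 5, 1 fell and 4 did not pass, and by direction 4 were lower and 1 higher. The step's median difference was -0.61 where that of all genes was 0.022. This median is the value of *Acer1* alone, which did not pass. *Acer3* read 6.496, 6.04 and 6.64 on the control arrays and 5.45, 5.53 and 5.40 on the mutant arrays. The mutants lay close together under the lowest control, and the difference was -0.93 ± 0.16 (SE; limma adjusted p = 0.0464). That call stands near the threshold: it passed in 5 of 16 alternatives. It was lost on leaving out any single array except control 2, with differences of -0.88 without control 1, -0.81 without control 3, and -0.92, -0.96 and -0.90 without mutants 1, 2 and 3 (adjusted p 0.103 to 0.170). *Asah1*, the acid ceramidase of lysosomes, read 8.23, 7.81 and 8.19 on the control arrays and 7.10, 7.22 and 7.64 on the mutant arrays. Its groups did not overlap, and the difference of -0.76 ± 0.18 did not pass (adjusted p = 0.114, and 0.0387 with array weights). *Acer1*, the alkaline ceramidase known from differentiated keratinocytes, read 10.37, 10.48 and 10.35 on the controls and 9.10, 10.37 and 9.89 on the mutants. Mutant array 2 was within the control range, and the difference was -0.61 ± 0.28 (adjusted p = 0.451). Without mutant array 1 it was -0.26. *Acer2* differed by -0.39 ± 0.19, and its second, dimmer probe set by 0.26. *Asah2*, the neutral ceramidase, differed the other way, by 0.31 ± 0.19.

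Genes of sphingosine phosphate turnover gave no call. *Sphk1*, which makes sphingosine phosphate, read 5.46, 5.68 and 5.69 on the control arrays and 5.71, 5.81 and 5.71 on the mutant arrays. The groups were separate by a narrow margin, with a difference of 0.14 ± 0.10. *Sphk2* differed by -0.11 ± 0.12 and *Sgpl1*, the lyase that degrades sphingosine phosphate, by -0.044 ± 0.119.

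**Figure D2:**
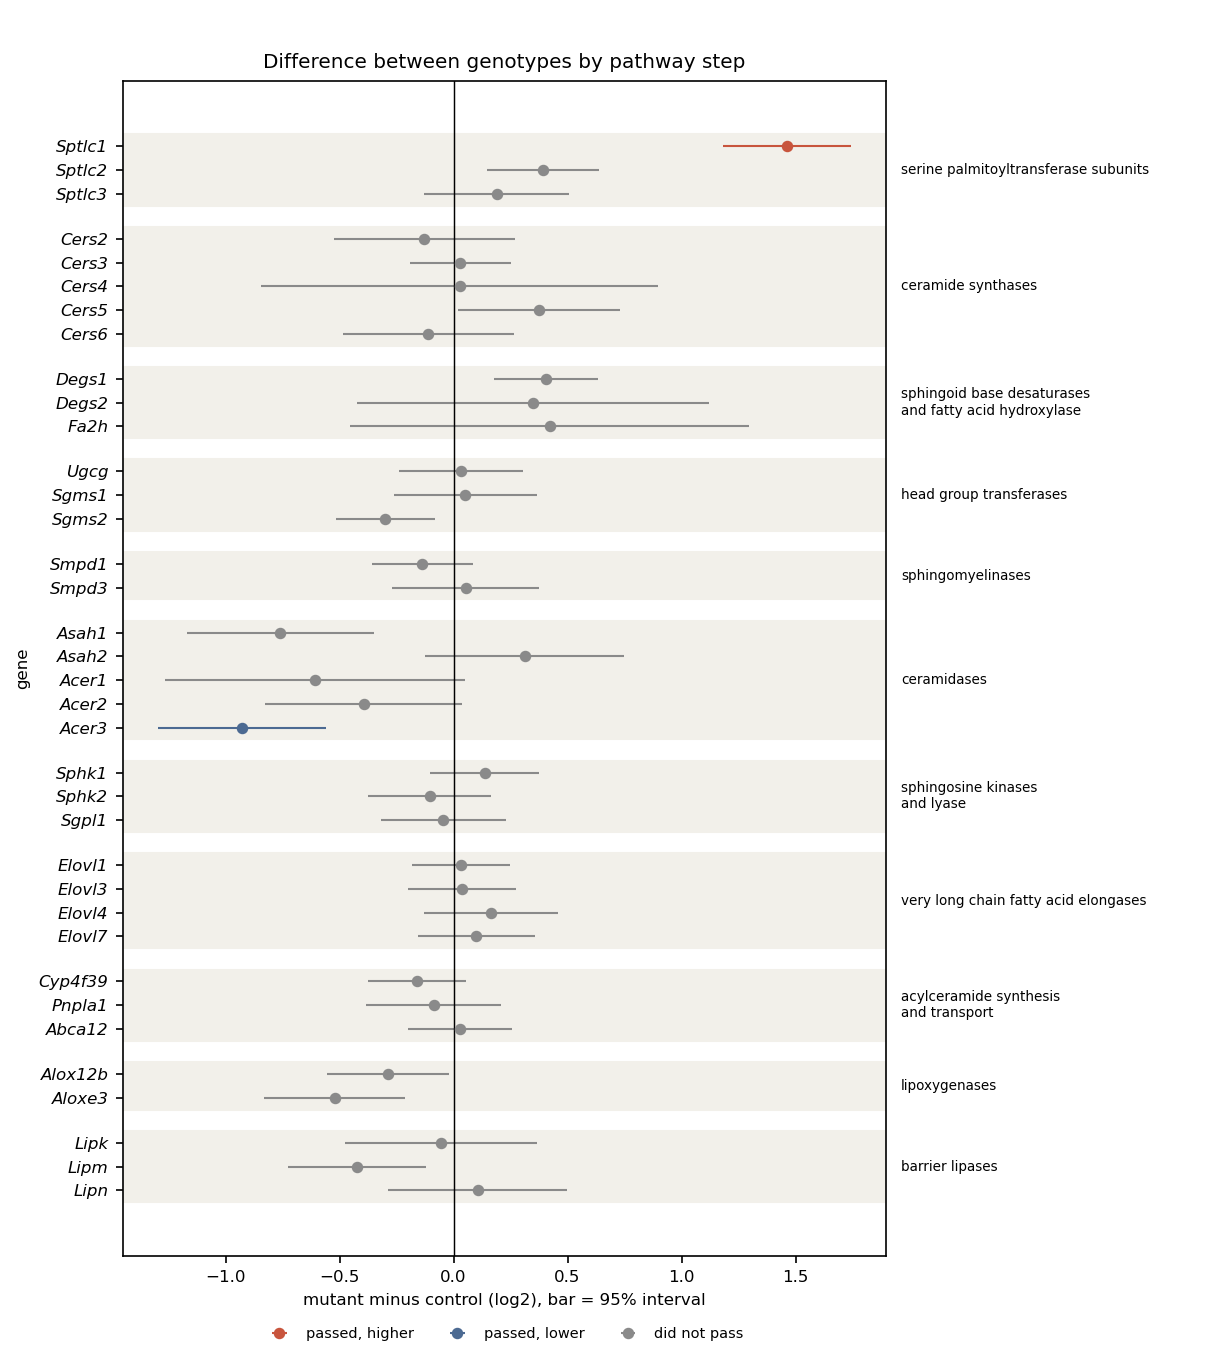
Difference of the mutant from the control group (horizontal axis, log2) for each of the 36 genes, with 95% intervals from limma as bars, by pathway step. *Sptlc1* (1.46) and *Acer3* (-0.93) passed the threshold, and 18 intervals lie within 0.5 of 0.

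Elongases of very long fatty acids gave some of the tightest values. *Elovl1* read 11.59, 11.59 and 11.62 on the control arrays and 11.56, 11.61 and 11.73 on the mutant arrays, a difference of 0.031 with an interval of -0.18 to 0.25. *Elovl4*, which makes the ultra-long acids of acylceramides, had means of 11.80 ± 0.042 and 11.97 ± 0.22 and a difference of 0.16 ± 0.13. *Elovl7* differed by 0.10 ± 0.11, and *Elovl3*, known from sebaceous glands and brown fat, was dim (difference 0.038).

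The 3 acylceramide genes gave no call either. *Cyp4f39*, whose enzyme hydroxylates the end of ultra-long fatty acids, read 11.16, 11.04 and 11.21 on the control arrays and 10.94, 11 and 10.99 on the mutant arrays. All mutants lay below all controls, but only by a small step, and the difference was -0.16 ± 0.093 (adjusted p = 0.563). *Pnpla1*, which joins linoleate to the hydroxylated ceramide, differed by -0.087 ± 0.127. *Abca12*, the transporter that loads lipids into lamellar granules, had means of 10.35 ± 0.051 and 10.38 ± 0.11. The 95% intervals of these 3 genes lay within 0.5 of 0, which leaves room for small changes.

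Both lipoxygenase genes were lower on average. *Alox12b*, which oxidises the linoleate of acylceramides, read 12.37, 12.16 and 12.36 on the control arrays and 11.93, 11.92 and 12.18 on the mutant arrays. Mutant array 3 lay just above the lowest control, and the difference was -0.29 ± 0.12 (adjusted p = 0.365). *Aloxe3*, which converts the product of that reaction, read 10.36, 10.02 and 10.43 on the controls and 9.63, 9.81 and 9.81 on the mutants. Its groups were separate, and its difference of -0.52 ± 0.13 did not pass (adjusted p = 0.143). Among the lipases of differentiating keratinocytes, *Lipm* read 10.96, 10.66 and 10.98 against 10.26, 10.50 and 10.55 on the mutant arrays. It too had separate groups without passing (-0.42 ± 0.13, adjusted p = 0.222). *Lipk* differed by -0.053 ± 0.181, and *Lipn* was dim (0.11 ± 0.17).

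Across the list, differences ran in both directions, 20 higher and 16 lower, with a median of 0.028 where all genes had 0.022. Groups did not overlap in 10 of the 36 genes (27.8%), against 18.1% of all genes. An unadjusted p under 0.05 was reached by 10 (27.8%), against 12.4% of all genes. Dim genes are rarer in the list than on the array, and among genes that are not dim the shares with separate groups were 28.1% of 32 members and 22.9% of all. For the unadjusted p they were 28.1% and 17.65%. Genes with both separate groups and an unadjusted p under 0.05 numbered 8: *Sptlc1*, *Sptlc2*, *Degs1*, *Sgms2*, *Asah1*, *Acer3*, *Aloxe3* and *Lipm*. Of all genes, dim ones included, 11.1% met both. That share was not taken among genes that are not dim. 

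Whether enzymes of a step changed by different amounts was examined in 8 pairs through their log2 ratio within each array. The ratio of *Sptlc1* to *Sptlc2* was 0.68, 0.68 and 0.79 on the control arrays and 1.64, 1.87 and 1.86 on the mutant arrays. It was higher on every mutant array, by 1.07 ± 0.083 (SE; exact two-sided permutation p = 0.1, the smallest that 3 arrays a group allow, 0.2 adjusted over the 8 pairs). The ratio of *Acer3* to *Acer2* was lower on every mutant array, by -0.53 ± 0.15 (exact p = 0.1, 0.2 adjusted). With the mean of both *Acer2* probe sets it was -0.86. *Acer3* against *Acer1* overlapped between groups (-0.32 ± 0.42, exact p = 0.6), and this value ran from -0.66 without mutant array 1 to -0.066 without mutant array 2. Ratios of *Sgms2* to *Sgms1* (-0.35 ± 0.14) and *Sphk1* to *Sphk2* (0.24 ± 0.11) were separate, each with an exact p of 0.1, though *Sphk1* to *Sphk2* read -2.40 on both control array 2 and mutant array 2 when rounded. The other 3 pairs, *Cers3* to *Cers2*, *Elovl4* to *Elovl1* and *Alox12b* to *Aloxe3*, overlapped, with differences of 0.16 ± 0.21, 0.13 ± 0.11 and 0.24 ± 0.098. On leaving out 1 array, *Cers3* to *Cers2* ran from 0.039 (without control 1) to 0.33 (without mutant 1). *Elovl4* to *Elovl1* ran from 0.033 (without mutant 2) to 0.22 (without mutant 1).

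**Figure D3:**
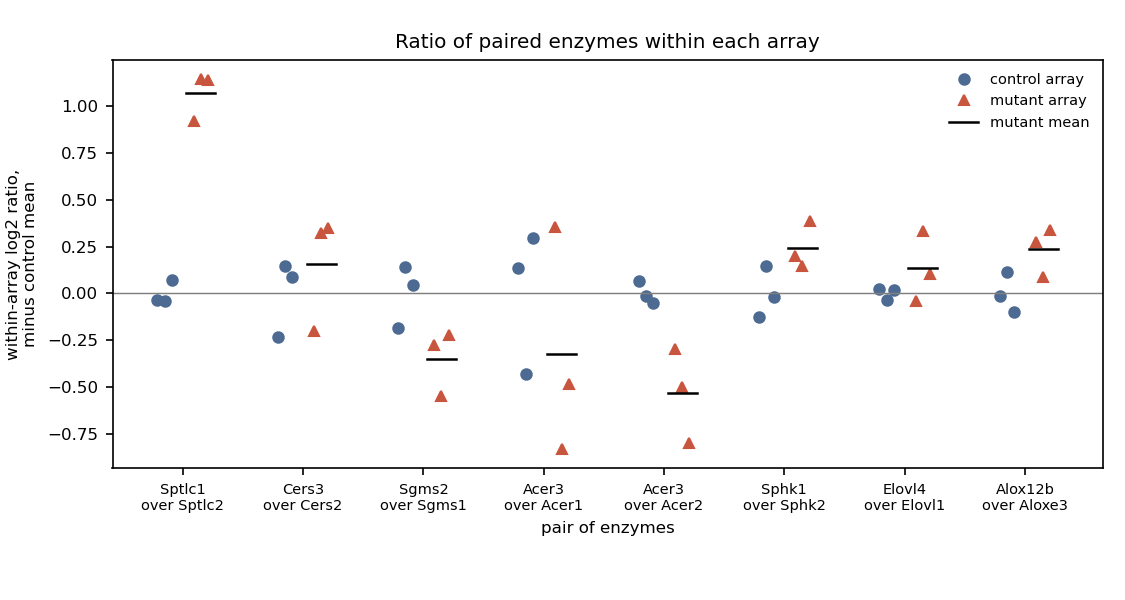
Within-array log2 ratio of 8 pairs of enzymes, with the mean of the control arrays subtracted (vertical axis), for 3 control arrays (circles) and 3 mutant arrays (triangles), and the mutant mean as a bar. The mutant mean of *Sptlc1* over *Sptlc2* lies 1.07 above the controls, and that of *Acer3* over *Acer2* lies at -0.53.

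The same pathways hold other genes, of which 64 were listed and 60 measured through a probe set of their own. Of these, 0 rose, 1 fell and 59 did not pass, with a median difference of 0.0068. The gene that fell was *Cerk*, encoding the kinase that phosphorylates ceramide. It read 7.91, 7.85 and 7.87 on the control arrays and 7.11, 7.37 and 6.91 on the mutant arrays. The controls agree within 0.1 and all mutants lie below them, with a difference of -0.75 ± 0.13 (limma adjusted p = 0.0482). Like that of *Acer3* this call is near the threshold, and it passed in 6 of 16 alternatives. It was lost without any single array other than mutant 2, at differences of -0.64 to -0.76.

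Among the small subunits and regulators of serine palmitoyltransferase, *Sptssb*, a subunit that widens its choice of acyl-CoA, read 9.83, 9.04 and 9.78 on the control arrays and 10.18, 10.69 and 10.21 on the mutant arrays. The groups were separate, and the difference of 0.81 ± 0.24 did not pass (adjusted p = 0.196). *Ormdl2*, encoding an inhibitor of the enzyme, differed by 0.35 ± 0.19. In glycosphingolipid metabolism, the galactosylceramide synthase gene *Ugt8a* differed by 1.12 ± 0.24 (adjusted p = 0.0981) from a dim control mean of 3.70, and the sulfatidase gene *Arsa* by -0.34 ± 0.12. The receptor genes for sphingosine phosphate *S1pr2* and *S1pr5* differed by 0.28 ± 0.10 and -0.48 ± 0.16. In fatty acid elongation, *Elovl2* and *Elovl6* differed by 0.20 ± 0.13 and -0.32 ± 0.25.

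Other barrier lipid genes held 2 that just missed the threshold. *Sdr9c7*, whose dehydrogenase acts on oxidised acylceramides, read 10.37, 10.05 and 10.35 on the control arrays and 9.09, 9.42 and 9.64 on the mutant arrays. *Awat2*, encoding a wax ester synthase, read 4.39, 4.34 and 4.89 on the controls and 5.27, 5.52 and 5.65 on the mutants. Both had separate groups, with differences of -0.87 ± 0.16 and 0.94 ± 0.17 (adjusted p = 0.0626 each). The lipoxygenase gene *Alox15*, named after its values were seen, read 4.36, 5.26 and 4.18 on the control arrays and 11.40, 5.94 and 6.37 on the mutant arrays. Mutant array 1 stood far above the others, and the difference of 3.30 ± 1.30 did not pass (adjusted p = 0.352). Without that array it was 1.56.

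**Figure D4:**
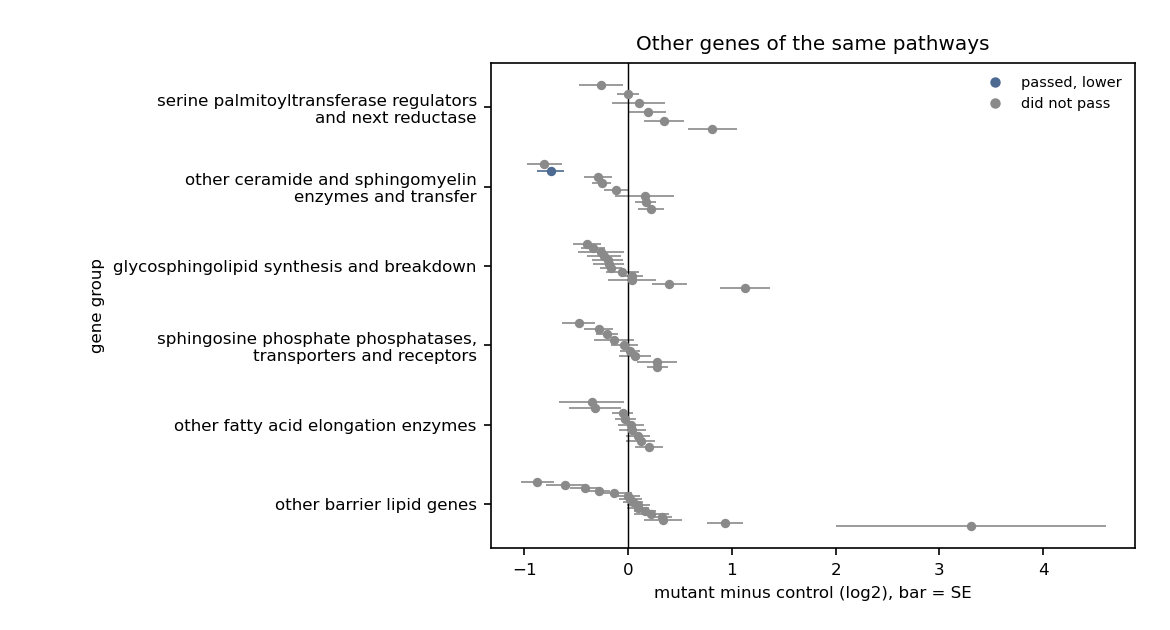
Differences of the mutant from the control group (horizontal axis, log2; bars are SE) for 60 other genes of the same pathways, in 6 groups. *Cerk* (-0.75) passed, and the point farthest right is *Alox15* (3.30), which did not.

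Markers of some other cells differed between the groups and are given beside these results. All 16 fibroblast and lamina propria markers were lower in the mutant group, and 3 of these fell (*Col1a2*, *Sparc* and *Thy1*). The median of the list was -0.65. Their summed linear signal was 5376 to 8944 on the control arrays and 3487 to 3802 on the mutant arrays, and none was dim. Of 9 smooth muscle markers 8 were lower and 0 passed, with sums of 3109 to 5123 and 1668 to 2610. All 10 skeletal muscle markers were lower on average, and 0 passed. Their sums spread widely inside both groups, from 872 (control array 1) to 23830 (control array 2) and from 984 to 8591. In the list for macrophages and Langerhans cells *Cd68* rose (1.11 ± 0.17) and *Lyz2* fell (-1.57 ± 0.27). Endothelial, lymphocyte, gland, adipocyte and nerve markers overlapped in their sums. Of the 7 adipocyte markers 3 were higher and 4 lower. Among them *Fabp4* had separate groups and a difference of 2.40 ± 0.44 that did not pass (limma adjusted p = 0.063). No marker was at 0, since every probe set has a background signal. With the mean of the fibroblast markers as a covariate, the difference of *Sptlc1* was 1.47 ± 0.30 (limma adjusted p = 0.659). Those of *Acer3* and *Cerk* were -1.06 ± 0.38 and -0.76 ± 0.31 (limma adjusted p = 0.9996 each). For these genes sizes were near those without the covariate, with larger errors. Other members moved more. *Asah1* went from -0.76 to -0.98, some members turned direction, and the median difference of the members became negative. The part of these cells in the results was not tested further. That covariate separates the groups by itself and leaves 3 residual degrees of freedom, and only 7 of all genes passed with it. Fewer cells of a type and less RNA per cell cannot be told apart in such tissue samples.

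The difference between genotypes was not shown to depend on sex. An interaction term in limma called 0 of the 36 genes, and 9 of all 19938 (0.0451%). An unadjusted p under 0.05 was reached by 3 of the 36 (*Cers5*, *Smpd3* and *Acer1*), and by 5.82% of all genes. *Acer1* differed by -1.26 in the male pair and -0.28 in the females (adjusted p of the interaction 0.762). With 1 male in each group, that comparison rests on few animals.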

How the data were processed

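Gene expression was measured on 6 arrays, each from 100 ng of total RNA, for 3 mice in each group. The authors deposited log2 values for 28853 probe sets, and the submitters' processing notes name Partek 6.4. How background was corrected and arrays were normalized and summarized is not stated here by any label or header; these steps can shrink differences of dim genes. That the scale is log2 follows from the deposited values (array medians 5.01 to 5.13). A single gene symbol was listed for 21789 of them, several symbols for 1621, and no name here for 5443. Symbols were updated by Entrez identifier to GRCm38.p6, and each gene took its probe set with the highest mean (19938 genes, none filtered).

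Differences were fitted across all genes by limma 3.58.1 (R 4.3.3; functions lmFit and eBayes) with genotype as the only term and 4 residual degrees of freedom. Tests are two-sided, Benjamini-Hochberg adjusted over all genes, and called at 0.05. A difference carries its moderated SE, and intervals are 95%. The pairs of enzymes used an exact permutation test, with SE from the spread of the arrays (scipy 1.17.1). The fitting steps were tested on simulated data. There, 6 of 50 genes changed by 0.5 log2 units were called, and 44 of 50 changed by 1. Of 159 calls there, 10 were false. The simulated noise was drawn for each gene on its own, with its moderated spread. It leaves out variation that genes share, such as that of tissue content. A gene that did not pass here may therefore still differ by 0.5, and some by more. The 95% intervals of *Asah1* (to -1.17), *Acer1* (to -1.27), *Degs2* (to 1.12) and *Fa2h* (to 1.30) reach beyond 1 in size.

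The members and lists were chosen with earlier results of these data known. The text names all members, *Klf4*, other pathway genes that passed or otherwise the 2 with the smallest p in each group, and markers. Alternatives covered normalization, dim genes, the choice of probe set, a block for replicate number, sex, an intensity trend, array weights, females alone and each array left out. The fibroblast covariate was added after seeing the data. The number of arrays limits the precision.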

Additional observations from a re-analysis of the deposited data

How the results depend on the processing

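*Sptlc1* passed under all 15 other settings listed in the processing account and missed only with the fibroblast covariate, where 0 members rose. The count of members that fell was 0 with quantile normalization, median centring, sex as a covariate, the replicate block, females alone and the fibroblast covariate, 2 with array weights (*Acer3* and *Asah1*), and 0 to 1 on leaving out 1 array. Other pathway genes called numbered 0 with median centring, the block, sex, females alone and the fibroblast covariate, 2 with an intensity trend, 4 with array weights and 0 to 1 on leaving out 1 array. All genes called numbered 207 as deposited, 81 with the replicate block, 370 with array weights, 83 in females alone, 7 with the fibroblast covariate and 44 to 193 on leaving out 1 array. The members' median difference was -0.20 with the fibroblast covariate. Deviations of same-numbered arrays from their group means correlated at -0.17, 0.090 and -0.10 over genes. Those of differently numbered arrays correlated at -0.27 to 0.31. With 3 arrays a group, these values cannot show whether the numbers pair littermates. Array 1 came from a male in both groups and arrays 2 and 3 from females, so the numbers match by sex.

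Of 572 values of members under alternatives, 534 kept their direction, and 18 of the 36 genes kept it throughout. Those that turned did not pass in any setting. In females alone they were *Cers6* (0.013), *Degs2* (-0.0031), *Sgpl1* (0.10), *Elovl3* (-0.050), *Pnpla1* (0.076) and *Lipk* (0.12), and with array weights *Ugcg* (-0.038). With the fibroblast covariate they were *Cers4* (-0.52), *Cers5* (-0.039), *Ugcg* (-0.082), *Sgms1* (-0.32), *Smpd3* (-0.22), *Asah2* (-0.052), *Elovl7* (-0.052) and *Lipn* (-0.34). On leaving out 1 array, ranges that cross 0 were -0.29 to 0.0073 for *Cers2*, -0.027 to 0.068 for *Cers3*, -0.42 to 0.28 for *Cers4*, -0.20 to 0.036 for *Cers6*, -0.050 to 0.095 for *Ugcg*, -0.043 to 0.15 for *Sgms1*, -0.027 to 0.17 for *Smpd3*, -0.12 to 0.031 for *Sgpl1*, -0.018 to 0.068 for *Elovl1*, -0.027 to 0.082 for *Elovl3*, -0.18 to 0.0091 for *Pnpla1*, -0.034 to 0.066 for *Abca12*, -0.26 to 0.053 for *Lipk* and -0.054 to 0.22 for *Lipn*. Leaving out 1 array moved the difference by over 1.5 times in 25 members, of which 0 had passed. Among the other pathway genes named in the results above, *Elovl6* turned in females alone (0.050). Some of those not named there turned as well. For example, *Ormdl1* ran from -0.67 to 0.45 and *S1pr1* from -0.41 to 0.52 over the alternatives. The causes were not tested. Differences of dim genes may be compressed by background signal.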
